A study of Mus musculus with 16 samples.

Results

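The genes described here are 10 that serve lipid uptake and lipoprotein assembly in absorptive epithelium: Cd36, Fabp1, Fabp2, Dgat1, Dgat2, Plin2, Apob, Mttp, Apoa1 and Apoa4. They were named by their roles, with earlier results of these data known. They were read by gene symbol from the 45513 genes counted in each of 16 colon libraries. The libraries came from 8 C57BL/6 mice that carried Atoh1(WT)CreERT2 in both copies of Atoh1 and the Cre reporter Rosa26tdTom/+ in a single copy. The methods describe the mice of the study as males and females aged 8 to 16 weeks, and the sample labels do not give the sex or age of each mouse. Atoh1 is the transcription factor that commits intestinal cells to the secretory lineage. CreERT2 stands behind the Atoh1 coding sequence in this knock-in, so tamoxifen (1 mg on each of 3 days) marks Atoh1-expressing cells and all of their descendants with the red fluorescent protein tdTomato. Live cells bearing the epithelial surface protein EpCAM were sorted from each colon into tdTom+ and tdTom- fractions, giving 8 libraries of each kind, paired by mouse. All mice, and so both fractions, shared the genotype and the treatment, and there was no uninduced group. The cells came from crypt-enriched fractions. Fraction 1, which the methods name villus-enriched for small intestine and colon together, had been discarded. The marked cells are a lineage rather than a purified cell type.

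Absorptive cells of the gut take up fatty acids at their luminal membrane, carry them on small cytosolic binding proteins and join them to glycerol as triglyceride in the endoplasmic reticulum. The triglyceride is either stored in cytosolic lipid droplets or loaded onto apolipoprotein B by the microsomal triglyceride transfer protein and exported as chylomicrons. The pathway is known chiefly from the small intestine, where dietary fat is absorbed, and the colon takes up little of it.

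Library totals ran from 16482530 to 24218367 counts in tdTom+ and from 18318172 to 45791503 in tdTom- cells, where the library of mouse 4 was the largest and no other passed 20668605. Atoh1 was at 132 counts per 1e6 (CPM) in tdTom+ and at 5.70 in tdTom- cells, the mucin Muc2 had a log2 fold change of 4.61, and all 8 goblet markers listed were called higher in tdTom+ cells. All 8 absorptive markers were called lower, among them the brush border phosphatase Alpi (−4.91) and the water channel Aqp8 (−5.18), and their summed level was 586 to 876 CPM in tdTom+ against 6352 to 12207 CPM in tdTom- libraries. Most markers listed for other epithelial cells were called lower in tdTom+ cells too, beside 25.5% of all genes tested. Of 7 enteroendocrine markers 6 were called lower (summed 278 to 746 CPM in tdTom+ against 1299 to 3745 CPM in tdTom- libraries), as were 4 of 6 tuft markers (45.1 to 96.0 against 79.4 to 135 CPM) and 4 of 6 stem and progenitor markers (389.9 to 649.6 against 514 to 929 CPM). In a fit with a term for the mouse, 5 of 6 tuft and 6 of 6 stem and progenitor markers were called lower. The tuft marker Pou2f3 was called in neither fit (log2 fold change 0.05). The part of these cell types in the values of the lipid genes was not tested. In bulk libraries such as these, fewer cells of a type and less RNA per cell cannot be told apart.

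RefSeq promoter windows (GRCm38.p6, 250 bases before to 50 bases after the annotated start) were found for 8 of the 10 genes. No entry was found for Dgat1 and Dgat2. The sequences below are shown for Apob, for the paired carriers Fabp1 and Fabp2, and for Plin2. Apob differed most among those of the 10 genes that passed the filter on low counts. Each runs 5′ to 3′ on the strand of its gene and stops before the bases that GENCODE M21 annotates as exon. Capitals mark matches to the searched motifs on either strand. The windows are chr12:7977427-7977647 (plus strand, 221 bases) for Apob, chr6:71199629-71199826 (plus, 198 bases) for Fabp1, chr3:122894822-122895071 (plus, 250 bases) for Fabp2 and chr4:86670061-86670309 (minus, 249 bases) for Plin2.
Apob: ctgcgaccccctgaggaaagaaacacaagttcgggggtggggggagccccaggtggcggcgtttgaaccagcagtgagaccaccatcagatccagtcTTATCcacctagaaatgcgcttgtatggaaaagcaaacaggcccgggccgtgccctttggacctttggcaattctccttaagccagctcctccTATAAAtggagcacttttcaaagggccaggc
Fabp1: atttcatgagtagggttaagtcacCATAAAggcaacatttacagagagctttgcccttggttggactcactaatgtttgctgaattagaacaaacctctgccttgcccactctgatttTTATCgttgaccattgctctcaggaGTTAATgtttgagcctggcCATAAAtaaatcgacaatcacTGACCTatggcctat
Fabp2: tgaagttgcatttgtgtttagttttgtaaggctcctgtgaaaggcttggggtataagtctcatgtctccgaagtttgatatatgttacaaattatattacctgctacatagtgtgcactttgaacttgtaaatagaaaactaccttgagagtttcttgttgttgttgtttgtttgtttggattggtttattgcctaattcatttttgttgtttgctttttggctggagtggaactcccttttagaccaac
Plin2: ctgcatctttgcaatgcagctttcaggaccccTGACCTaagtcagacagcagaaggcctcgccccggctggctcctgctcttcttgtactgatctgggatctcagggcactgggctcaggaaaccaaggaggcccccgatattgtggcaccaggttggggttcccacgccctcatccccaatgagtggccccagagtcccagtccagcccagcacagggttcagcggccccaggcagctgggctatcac

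Over the whole windows of 300 bases, the HNF4 motif CAAAGTCCA was in 0 of the 8 genes and in 0.475% of all 32851 promoters in the table. The AGGTCA unit that many nuclear receptors bind was in Fabp1, Cd36 and Plin2 (3 of 8, against 16.3% of all promoters). GATAA, the GATA factor motif, was in Apob, Apoa1 and Fabp1 (3 of 8, 25.4%). TTTATG, a motif of the CDX factors, was in Fabp1 and Cd36 (2 of 8, 11.9%), the TATA box TATAAA was in Apob and Fabp1 (2 of 8, 13.6%), and GTTAAT, part of the HNF1 motif, was in Fabp1 (1 of 8, 7.1%). The Fabp1 window thus held 5 of the 6 motifs, while those of Fabp2, Mttp and Apoa4 held none. Positions count the base before the RefSeq start as −1. The TATA box began at −60 in Apob and at −30 in Fabp1, and the GATA match of Apob began at −153 on the opposite strand. The printed sequences stop 29 bases (Apob) and 52 bases (Fabp1) before that start, where GENCODE M21 places exon. The TATA box of Fabp1 is therefore not printed. An exact match is a description of the letters, and none of these factors was mapped in the data.

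Of the 10 genes, 6 passed the filter on low counts (Fabp2, Dgat1, Dgat2, Plin2, Apob and Mttp), and each of them exceeded its minimum of 0.517 CPM in all 16 libraries. All 6 were lower in tdTom+ cells, in 8 of 8 mice each. Each was called at an adjusted p under 0.01 by the quasi-likelihood test of edgeR. That test had no term for the mouse, and the Benjamini-Hochberg adjustment was made over 15841 genes. The same test called 25.5% of all genes tested lower and 25.5% higher. The genes were chosen with earlier results of these data known, so the shares are given as a description. For each of the 6, the 8 tdTom+ libraries lay wholly below the 8 tdTom- libraries, as they did for 15.3% of all genes tested. None of the 6 was higher, which follows from these calls. DESeq2, limma-voom and edgeR with the mouse as a replicate block also called all 6 lower and 0 higher. Their median log2 fold change was −1.42, beside 0.00 over all genes tested.

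**Figure D1:**
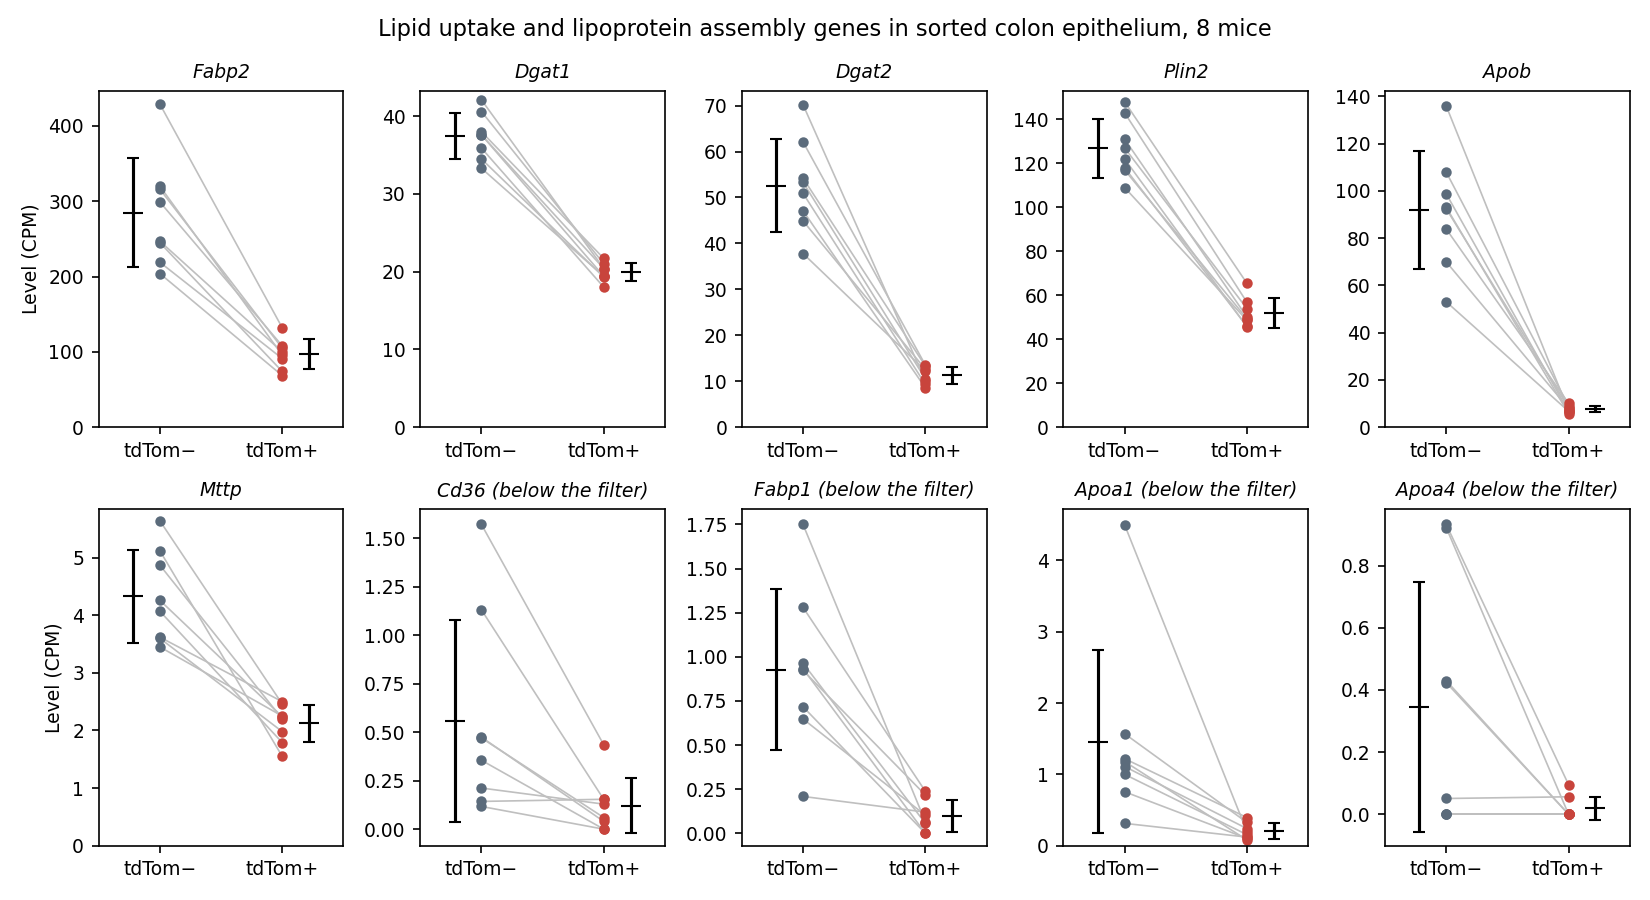
Level of each of the 10 genes in counts per 1e6 (CPM, vertical axes, scaled for each gene) in the tdTom- and tdTom+ library of each of 8 mice. Points are libraries, grey lines join the libraries of a mouse, and bars give the mean and SD. In the 6 genes that passed the filter the populations do not overlap, whereas Cd36, Fabp1, Apoa1 and Apoa4 lie near or below 1 CPM in most tdTom- libraries and overlap between the populations.

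Among the genes of uptake and binding, Fabp2 was the most abundant. Fabp2 (ENSMUSG00000023057, chromosome 3 from 122895072 to 122899506, plus strand, GRCm38) encodes the intestinal fatty acid binding protein, a cytosolic carrier of long-chain fatty acids. Its level ran from 204 CPM through a median of 273 to 429.5 CPM in tdTom- libraries, and from 68.5 through 97.8 to 132 CPM in tdTom+ libraries. The highest tdTom+ library (mouse 2) was below the lowest tdTom- library (mouse 4), and the same mice were the extremes of both populations. The means were 285 ± 72.9 and 96.8 ± 19.9 CPM (SD, n = 8 each), a 2.94-fold lower level (log2 fold change −1.56, SE 0.15, adjusted p = 1.01e-08, edgeR). The log2 ratio within a mouse lay between −1.74 and −1.26.

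Triglyceride synthesis is represented by Dgat1 and Dgat2, enzymes of unrelated sequence that both add the last fatty acid to diacylglycerol. Dgat1 (ENSMUSG00000022555, chromosome 15 from 76502015 to 76511951, minus strand) ran from 33.3 through a median of 37.6 to 42.1 CPM in tdTom- libraries and from 18.04 through 19.9 to 21.7 CPM in tdTom+ libraries. It was the member with the narrowest spread relative to its mean, at 37.5 ± 2.92 and 19.95 ± 1.16 CPM (SD, n = 8 each). Its log2 fold change of −0.91 (SE 0.06, adjusted p = 2.24e-11, edgeR) was the smallest of the 6 in size, a 1.88-fold lower level.

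Dgat2 (ENSMUSG00000030747, chromosome 7 from 99153663 to 99182713, minus strand) ran from 37.8 through a median of 52.1 to 70.2 CPM in tdTom- and from 8.55 through 11.4 to 13.5 CPM in tdTom+ libraries. The lowest tdTom- library, that of mouse 4, was still above every tdTom+ library. The means of 52.6 ± 10.1 and 11.3 ± 1.89 CPM (SD, n = 8 each) gave a log2 fold change of −2.22 (SE 0.12, adjusted p = 1.83e-12, edgeR), or 4.65-fold.

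The difference between Dgat2 and Dgat1 was tested within mice. The log2 ratio of tdTom+ to tdTom- was lower for Dgat2 than for Dgat1 in 8 of 8 mice, by 1.30 on average (difference −1.30 ± 0.337, SD, n = 8, from −1.74 to −0.84). The exact two-sided sign-exchange permutation test gave p = 0.0078, the smallest that 8 mice allow, and 0.0156 after Benjamini-Hochberg adjustment over 4 pairs of genes. The order of the 2 enzymes turned with it. Per kilobase of exon, the ratio of Dgat2 to Dgat1 level was 1.54 to 2.26 in tdTom- libraries (median 1.81) and 0.534 to 0.944 in tdTom+ libraries (median 0.795), so Dgat2 was above Dgat1 in every tdTom- library and below it in every tdTom+ library.

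Plin2 (ENSMUSG00000028494, chromosome 4 from 86648386 to 86670060, minus strand) encodes perilipin 2, the coat protein of cytosolic lipid droplets in most cells. Its level ran from 109 through a median of 124 to 148 CPM in tdTom- and from 45.6 through 49.7 to 65.4 CPM in tdTom+ libraries. Mouse 2 was highest in both populations, and the populations were separated by a wide gap. The means were 127 ± 13.3 and 51.95 ± 6.63 CPM (SD, n = 8 each), and the log2 fold change was −1.29 (SE 0.08, adjusted p = 1.11e-11, edgeR), a 2.44-fold lower level.

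Lipoprotein assembly held the largest difference. Apob (ENSMUSG00000020609, chromosome 12 from 7977648 to 8016835, plus strand) encodes apolipoprotein B, the structural protein around which a chylomicron is built. It ran from 53.1 through a median of 92.8 to 136 CPM in tdTom- libraries, with mouse 4 lowest and mouse 2 highest, and from 5.78 through 7.44 to 10.1 CPM in tdTom+ libraries. The highest tdTom+ library, that of mouse 6, lay far below the lowest tdTom- library. The means were 91.9 ± 24.8 and 7.67 ± 1.43 CPM (SD, n = 8 each), a 12.0-fold lower level (log2 fold change −3.59, SE 0.16, adjusted p = 1.22e-13, edgeR). Apob in tdTom+ cells thus stood at 8.35% of its tdTom- level, against 21.4% for Dgat2, 34.0% for Fabp2, 41.0% for Plin2, 49.0% for Mttp and 53.2% for Dgat1. The 8 absorptive markers stood at 2.77% (Aqp8) to 28.3% (Slc26a2, a sulfate transporter). Of 6 general epithelial markers 5 were called lower and 1 higher (edgeR), beside 25.5% in each direction over all genes tested. They stood at 47.4% (Krt8) to 160% (Krt18) of their tdTom- level. The part of absorptive cells in the values of the lipid genes was not tested.

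Mttp (ENSMUSG00000028158, chromosome 3 from 138089854 to 138144968, minus strand) encodes the large subunit of the microsomal triglyceride transfer protein, which loads lipid onto apolipoprotein B. It was the weakest of the tested members, with 67 to 219 counts per tdTom- and 26 to 50 per tdTom+ library. Its level ran from 3.45 through a median of 4.16 to 5.64 CPM in tdTom- and from 1.55 through 2.22 to 2.50 CPM in tdTom+ libraries. The populations did not overlap, and the means of 4.33 ± 0.804 and 2.12 ± 0.327 CPM (SD, n = 8 each) gave a log2 fold change of −1.02 (SE 0.13, adjusted p = 9.66e-07, edgeR), or 2.03-fold.

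Apob and Mttp were therefore not lowered in proportion. The log2 ratio of Apob was below that of Mttp in 8 of 8 mice, with a difference of −2.55 ± 0.691 (SD, n = 8, from −3.37 to −1.47, exact two-sided sign-exchange permutation test, p = 0.0078, adjusted p = 0.0156 over 4 pairs). Per kilobase of exon, the level of Apob was 5.56 to 14.9 times that of Mttp in tdTom- libraries (median 10.7) and 1.17 to 2.26 times in tdTom+ libraries (median 1.68), and these ranges did not overlap.

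The other 4 genes were near the limit of detection. A floor of 3 counts corresponded to 0.0582 to 0.163 CPM in tdTom- and 0.119 to 0.194 CPM in tdTom+ libraries, which covers counting error only. Fabp1 and Apoa1 missed the filter by a single library, the tdTom- library of mouse 7, whereas Cd36 and Apoa4 exceeded 0.517 CPM in only 2 tdTom- libraries each, and none of the 4 did so in any tdTom+ library. With no filter, all 10 genes were called lower by edgeR, beside 15.6% of 27559 genes, and the values of these 4 come from that fit.

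Fabp1 (ENSMUSG00000054422, chromosome 6 from 71199827 to 71205023, plus strand), the liver-type carrier that is abundant in small intestinal enterocytes, had 4 to 48 counts per tdTom- and 0 to 6 per tdTom+ library. Its level ran from 0.209 through a median of 0.928 to 1.75 CPM in tdTom- and from 0.00 through 0.0834 to 0.238 CPM in tdTom+ libraries. It was lower in tdTom+ cells in 8 of 8 mice, but the tdTom- library of mouse 7 overlapped the highest tdTom+ library. Pooled over libraries, its 175 tdTom- and 16 tdTom+ counts gave a level 8.93 times as high in tdTom- cells (95% exact interval 5.35 to 15.97), and the log2 fold change was −3.09 (SE 0.46, adjusted p = 3.74e-06, edgeR with no filter). The difference from Fabp2 was −0.84 ± 1.03 on the log2 scale (SD, n = 8, lower in 7 of 8 mice), which did not pass the exact two-sided sign-exchange permutation test (p = 0.0703, adjusted p = 0.0938). It passed with a prior count of 0.5 in place of 2 (−1.67, adjusted p = 0.0312, exact permutation test) and without mouse 7 (−1.07, adjusted p = 0.0208, exact permutation test).

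Apoa1 (ENSMUSG00000032083, chromosome 9 from 46228580 to 46230466, plus strand), the main protein of high-density lipoprotein, had 261 counts over the tdTom- and 30 over the tdTom+ libraries. Its level ran from 0.314 through a median of 1.15 to 4.50 CPM in tdTom- and from 0.0792 through 0.174 to 0.394 CPM in tdTom+ libraries. The tdTom- library of mouse 3 stood above the other 7, which reached at most 1.57 CPM, and that of mouse 7 lay within the tdTom+ range. The pooled level was 7.10 times as high in tdTom- cells (95% exact interval 4.86 to 10.7) and 5.32 times as high without mouse 3, and the log2 fold change was −2.83 (SE 0.45, adjusted p = 1.27e-05, edgeR with no filter).

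Apoa4 (ENSMUSG00000032080, chromosome 9 from 46240696 to 46243459, plus strand), a chylomicron apolipoprotein of enterocytes, was the sparsest with 83 counts in tdTom- and 3 in tdTom+ cells. It was at 0 counts in 3 tdTom- libraries (mice 5, 7 and 8) and in 6 tdTom+ libraries. Its tdTom- level ran from 0.00 through a median of 0.237 to 0.933 CPM and its tdTom+ level from 0.00 through 0.00 to 0.0954 CPM. It was lower in tdTom+ cells in 4 mice (2, 3, 4 and 6), at 0 in both populations in 3 and marginally higher in mouse 1 on 1 count in each library. The pooled ratio of tdTom- to tdTom+ level was 22.6 with a 95% exact interval of 7.47 to 112 (34.0 without mouse 4, on 35 and 1 counts), and the log2 fold change was −3.89 (SE 0.97, adjusted p = 0.00203, edgeR with no filter). Set against Apoa1, its log2 ratio differed by 0.82 ± 1.48 (SD, n = 8, lower in 3 of 8 mice), and the exact two-sided sign-exchange permutation test gave p = 0.1484 (adjusted p = 0.1484). At these counts the prior count of 2 sets much of a ratio, and the test says little about Apoa4.

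Genes that mark enterocytes of the small intestine were read beside Apoa1 and Fabp1. The tdTom- library of mouse 3, highest in Apoa1 and Fabp1, had the largest summed level of 8 such markers (275 CPM, against 201 to 255 CPM in the other tdTom- libraries) and was highest in 5 of the 8 (Fabp6, Anpep, Slc5a1, Enpep and Mme). The library of mouse 7, lowest in Apoa1 and Fabp1, had the smallest sum but was highest in trehalase, Treh (0.940 CPM). The glucose transporter Slc5a1 made up most of each sum, at 161 to 186 CPM. Sucrase-isomaltase, Sis, was highest in mouse 8, and lactase, Lct, had 42 counts over all 16 libraries. In tdTom+ libraries the summed level was 149 to 172 CPM. Of 6 of these markers tested 4 were called lower and 1 higher, the aminopeptidase Anpep (9.93 CPM in tdTom- and 36.0 in tdTom+ cells, log2 fold change 1.87). The part of these markers in the values of Apoa1 and Fabp1 was not tested.

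Cd36 (ENSMUSG00000002944, chromosome 5 from 17781690 to 17888801, minus strand), a membrane receptor that takes up long-chain fatty acids, had 3 to 29 counts per tdTom- and 0 to 8 per tdTom+ library. Its level ran from 0.117 through a median of 0.413 to 1.57 CPM in tdTom- and from 0.00 through 0.0946 to 0.434 CPM in tdTom+ libraries. The tdTom- libraries of mice 2 and 5 stood above the rest, and mouse 6 had 3 counts in each population. Pooled, its level was 4.04 times as high in tdTom- cells (95% exact interval 2.41 to 7.12), and the log2 fold change was −2.12 (SE 0.63, adjusted p = 0.00841, edgeR with no filter). The call was lost without mouse 1, 3, 5, 7 or 8, where the log2 fold change was −2.24 to −1.95 and the adjusted p 0.0105 to 0.0287. Cd36 is also a gene of macrophages, endothelium and adipocytes. The summed level of 8 immune markers was 4.88 to 11.5 CPM in tdTom- and 2.34 to 4.25 CPM in tdTom+ libraries, and the macrophage receptor Csf1r, named after its values were seen, averaged 0.591 and 0.0585 CPM. The summed immune level was 11.5 CPM in the tdTom- library of mouse 2, which was highest in Cd36, and also 11.5 CPM in that of mouse 7. The summed level of 6 endothelial markers was 3.79 to 6.65 and 2.61 to 5.05 CPM, though Cdh5 had 1 count in all. This sum joins markers that went opposite ways. Pecam1 was called lower, at 33.1% of its tdTom- mean (log2 fold change −1.58, edgeR). Esam, the other endothelial marker tested, was higher in 7 of 8 mice but not called (0.43). Of 6 adipocyte markers Adipoq, Lep and Plin1 were at 0 in all 16 libraries. The summed level of the adipocyte markers was 5.27 to 14.4 CPM in tdTom- and 0.0598 to 0.615 CPM in tdTom+ libraries, nearly all of it from the droplet gene Cidec (8.86 and 0.404 CPM on average). The part of non-epithelial cells in the value of Cd36 was not tested.

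Levels per length placed the genes in an order that was partly shared by the populations. In tdTom- cells the medians, in CPM per kilobase of exon, were 283 for Fabp2, 35.4 for Plin2, 23.1 for Dgat2, 12.3 for Dgat1, 6.66 for Apob, 1.68 for Fabp1, 0.927 for Apoa1, 0.671 for Mttp, 0.131 for Apoa4 and 0.115 for Cd36. The top of this order was clear, since from Fabp2 down to Fabp1 each gene exceeded the next in 8 of 8 libraries, with ranges that overlapped only for Plin2 and Dgat2. Fabp1, Apoa1 and Mttp overlapped as neighbours (order held in 7 and 6 of 8 libraries), and Apoa4 and Cd36 could not be ordered (4 of 8).

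In tdTom+ cells Fabp2 (median 101) and Plin2 (14.2) again led. Dgat1 (6.51) came before Dgat2 (5.05), in 8 of 8 libraries though the ranges over mice overlapped, and Apob (0.534) stood just above Mttp (0.358) with ranges that did not overlap. Below Mttp neighbours overlapped throughout, from Fabp1 (0.151) and Apoa1 (0.141) to Cd36 (0.0264) and Apoa4 (0.00). Among all genes tested, the median level per kilobase of Apob fell at the 53.3 percentile in tdTom- and at the 10.97 percentile in tdTom+ cells, while Fabp2 stayed at the 98.9 and 95.9 percentiles.

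**Figure D2:**
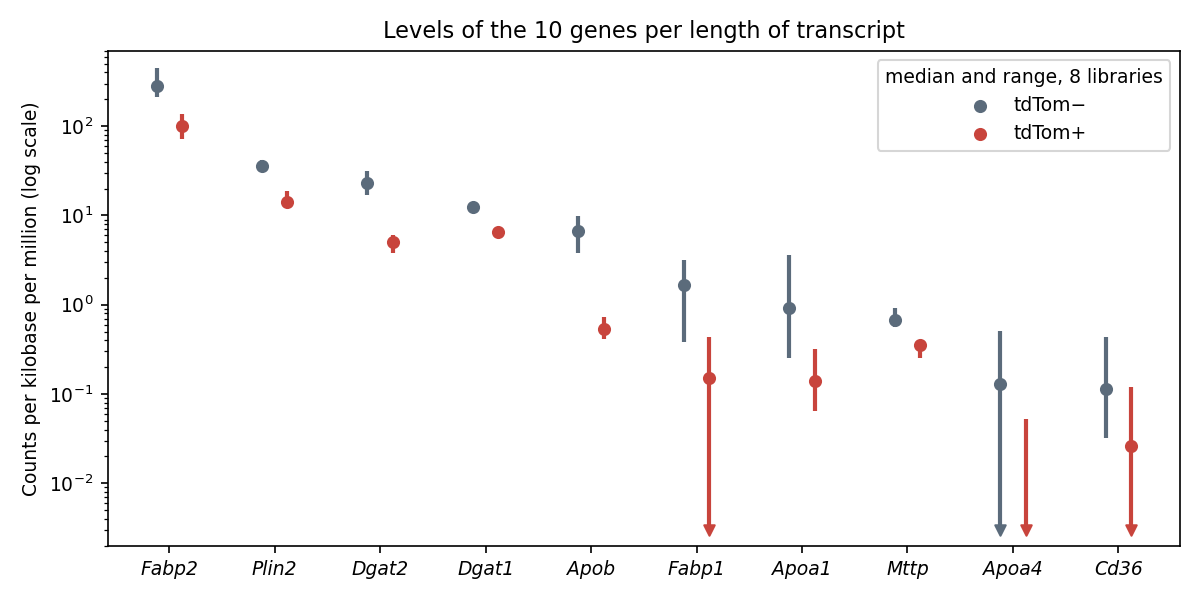
CPM per kilobase of exon (log axis) for the 10 genes, ordered by their tdTom- median. Dots are medians and lines the range over 8 libraries of each population, arrowheads mark ranges that reach 0, and Apoa4 has no tdTom+ dot because its median is 0. Fabp2 leads both populations, and Dgat2 lies above Dgat1 in tdTom- but below it in tdTom+ cells.

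The 8 mice did not contribute alike. Among tdTom- libraries, that of mouse 4 was the lowest in 5 of the 6 tested genes (all but Mttp), with Apob 0.80 below the population median on the log2 scale, and that of mouse 2 was the highest in 5 (all but Mttp), with Fabp2 0.66 above the median. The tdTom- library of mouse 4 was also the lowest in 7 of 8 absorptive markers, with a median deviation of −0.65, and mouse 2 was the highest in 3 of 8, with a median deviation of 0.15. Mttp had its tdTom- maximum in mouse 6 and its minimum in mouse 1. In the tdTom+ libraries no mouse was the lowest, or the highest, in more than 2 of the 6 genes. Of the single mice, mouse 2 gave the largest log2 ratios of Apob (−4.26), Dgat2 (−2.78) and Dgat1 (−1.04), and mouse 4 the smallest (−2.96, −1.62 and −0.78). Within mice 1 to 3 the 6 log2 fold changes ran from −3.79 (Apob) to −0.96 (Dgat1), and within mice 5 to 8 from −3.52 to −0.90, and all 6 were called in each subset.

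**Figure D3:**
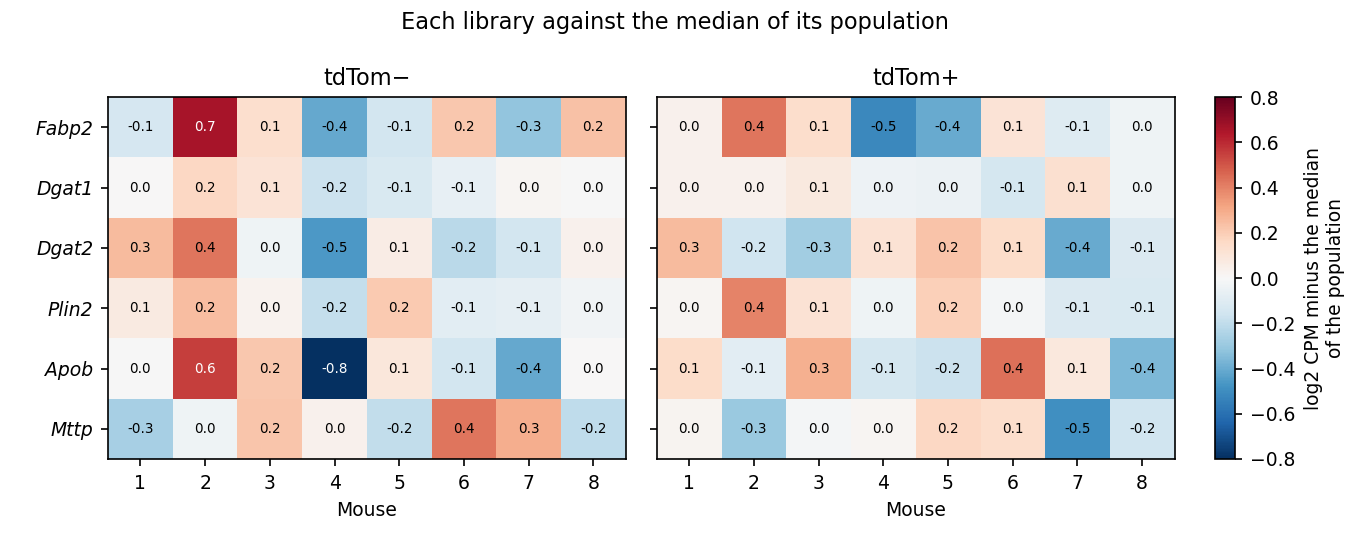
Difference of each library from the median of its population, in log2 CPM, for the 6 tested genes (rows) and 8 mice (columns), with tdTom- libraries on the left and tdTom+ libraries on the right. Blue is below and red above the median. The tdTom- column of mouse 4 is blue and that of mouse 2 red in 5 of 6 rows, with Mttp near the median in both.

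The rest of the pathway was read from 7 lists of 111 further genes, of which 84 were tested, 46 were called lower and 18 higher (edgeR, adjusted p under 0.01), with a median log2 fold change of −0.40. Of all genes tested 25.5% were called lower and 25.5% higher, against 54.8% lower in the lists together. These shares over all genes stand beside the count of each list below. The lists too were chosen with earlier results of these data known, so these shares are a description. Of the 84 genes 76 were over the level of the filter in all 16 libraries, with 39 lower and 18 higher, and Plin5, Creb3l3 and Gata4 were over it in 1 population alone. Of 11 genes of fatty acid transport and activation 3 were lower and 6 higher, with a median of 0.30. Slc27a4, the transport protein FATP4 of enterocytes, was lower (−1.34, adjusted p = 6.63e-11, edgeR), whereas the acyl-CoA synthetase Acsl1 was higher (1.68, adjusted p = 4.21e-16, edgeR). The lipoprotein receptor Scarb1 was higher (0.30, adjusted p = 0.000319, edgeR), and Acsl5, an acyl-CoA synthetase of the gut, had a log2 fold change of −0.13 that was not called (adjusted p = 0.0537, edgeR).

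Of the other fatty acid and retinol binding proteins, 5 of 12 were tested, with 3 lower and 0 higher at a median of −1.74, and both of the genes that were not called had estimates of −0.08 and −0.05. Rbp2, the retinol carrier of enterocytes, was lower (−3.41, adjusted p = 1.36e-11, edgeR), as was the ileal bile acid carrier Fabp6 (−2.18, adjusted p = 6.91e-07, edgeR). Fabp5, the epidermal type, was not called (−0.05, adjusted p = 0.731, edgeR). In glycerolipid synthesis 8 of 15 were lower and 4 higher at a median of −0.34. Mogat2, which makes diacylglycerol from absorbed monoacylglycerol and so supplies both Dgat enzymes, had 8.00 CPM in tdTom- cells against 0.842 in tdTom+ cells (−3.23, adjusted p = 4.36e-11, edgeR), and the phosphatidate phosphatase Lpin1 was higher (1.12, adjusted p = 1.71e-06, edgeR).

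In the list of droplet coat and lipolysis genes 10 of 13 were lower and 2 higher at a median of −0.44, beside 25.5% in each direction over all genes tested. The 10 include Plin5, which was over the level of the filter in tdTom- libraries alone. Cidec, which fuses droplets, had 1 to 12 counts per tdTom+ library and was over the level of the filter in 3 of these 8, so that its log2 fold change of −4.43 is given as a description. Hilpda, an inhibitor of triglyceride lipolysis, was higher (2.09, adjusted p = 5.68e-12, edgeR). Plin3, the other widely expressed perilipin tested, differed little (−0.21, adjusted p = 0.00224, edgeR), and its call was lost without mouse 7 (adjusted p = 0.0121) or mouse 8 (adjusted p = 0.0135). Of 13 further apolipoproteins 5 were tested, with 3 lower and 0 higher at a median of −1.26, led by Apol7a (−2.11, adjusted p = 1.43e-11, edgeR). Apoc3 and Apoa5, neighbours of Apoa1 and Apoa4 on chromosome 9, were below the filter with 31 and 88 counts in all.

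The list of lipoprotein assembly and export had 6 of 15 lower, 5 higher and a median of 0.11. Those that were lower included the Apob mRNA editing enzyme Apobec1 (−1.39, adjusted p = 5.43e-09, edgeR) and the sterol exporter Abcg5 (−2.84, adjusted p = 3.51e-11, edgeR). Those that were higher included P4hb, the protein disulfide isomerase that is also the small subunit of the transfer protein (808.5 CPM in tdTom- cells against 2246 in tdTom+ cells, 1.47, adjusted p = 8.91e-13, edgeR), and the endoplasmic reticulum export receptor Mia3 (2.06, adjusted p = 1.38e-15, edgeR). The subunits of the transfer protein thus had calls in opposite directions, with Mttp lower and P4hb higher in tdTom+ cells. Sar1b, the vesicle coat GTPase needed for chylomicron export, was not called (0.26, adjusted p = 0.0648, edgeR) but passed with the mouse as a replicate block (0.25, adjusted p = 0.00129, edgeR). Pla2g12b, which takes part in lipoprotein lipidation, was not called (−0.45, adjusted p = 0.138, edgeR).

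Among 20 transcriptional regulators 13 were lower and 1 higher at a median of −0.79, beside 25.5% lower and 25.5% higher of all genes tested. The 13 include Creb3l3 and Gata4, which were over the level of the filter in tdTom- libraries alone. Creb3l3, a membrane-bound transcription factor of the endoplasmic reticulum that acts on lipid genes, averaged 11.2 CPM in tdTom- libraries against 0.266 CPM in those of tdTom+ cells, with 2 to 7 counts per tdTom+ library. It passed the filter through the tdTom- libraries alone, and its log2 fold change of −5.38 is given as a description. The nuclear receptors Hnf4a (−1.11, adjusted p = 3.50e-12, edgeR) and Hnf4g (−0.74, adjusted p = 5.09e-07, edgeR) were lower. The sterol factor Srebf2 was the gene called higher (0.28, adjusted p = 0.00031, edgeR).

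**Figure D4:**
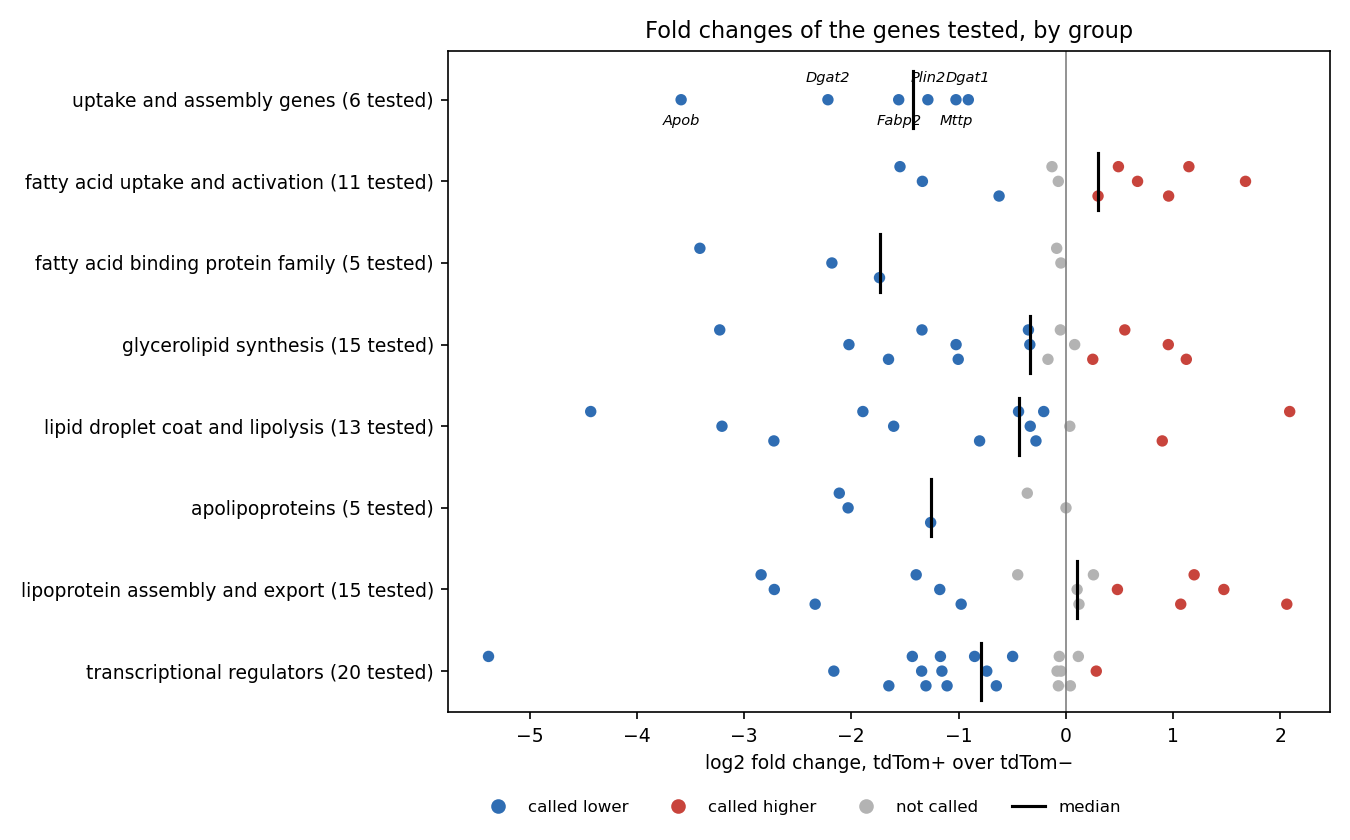
Log2 fold change of tdTom+ over tdTom- cells (horizontal axis) for the 6 tested uptake and assembly genes and for the tested genes of the 7 further lists (rows). Each dot is a gene, coloured by its call at an adjusted p under 0.01, and black bars are list medians. The 6 genes lie between −3.59 and −0.91, while the lists of uptake and of assembly and export hold calls in both directions.

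The genes whose log2 CPM followed 5 of the tested members most closely over the 16 libraries are a description, since the populations separate along the same axis for many genes. Apob was most like the fatty acid hydroxylase Cyp4f14, Fbxo25 and Sectm1b (Pearson's r 0.994 to 0.995). Fabp2 was most like Higd1a, Akr1c12 and Fam162a (0.993 to 0.994). Dgat2 was closest to Nudt4, Mfsd9 and Bmp3 (0.992 each) and Dgat1 to Vdac3-ps1, Ifit1bl2 and D1Ertd622e (0.99 to 0.992). Mttp followed its nearest genes, Gm7336, Gm10481 and Gm5523, less closely (0.954 to 0.965). For the 4 sparse genes the highest r ran from 0.788 (Apoa4 with Pon2) to 0.946 (Apoa1 with Ftl1-ps1), and Cd36 was nearest to Zfp36, Jun and Sat1 (0.914 to 0.934). Pseudogenes such as Vdac3-ps1 and Ftl1-ps1 can share reads with their parent genes, and their counts are uncertain.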

How the data were processed

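RNA of sorted EpCAM+ colon cells from 8 mice was sequenced by the authors as stranded single-end mRNA libraries and aligned to GRCm38.p3 with TopHat2 2.1.1, as the submitters' processing notes name it. The deposited files hold unnormalized read counts per gene from featureCounts (1.5.0-p1 in the file headers, Subread 1.5.2 in the notes), summed over exons of primary alignments on the reverse strand. Groups and mouse numbers came from the sample labels. The labels give tamoxifen at 1 mg per day on 3 days, which the methods on animal treatment repeat and those on sequencing do not. Symbols were taken from GENCODE M21 for 44671 of 45513 genes, and coordinates from the deposited files. Small intestinal and 9S/T-A samples are not analysed here.

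tdTom+ was set against tdTom- in edgeR 4.0.16 under R 4.3.3 by its quasi-likelihood functions glmQLFit and glmQLFTest, after filterByExpr and TMM scaling and without a mouse term, at a Benjamini-Hochberg adjusted p under 0.01 over all genes tested. CPM used TMM library sizes, log2 CPM a prior count of 2, and levels per kilobase the exonic length in the files. Each SE of a log2 fold change is its size divided by the square root of the F statistic of the quasi-likelihood test. Paired genes were compared by exact sign exchange over the 8 mice at an adjusted p of 0.05. Intervals of pooled counts are exact (Clopper-Pearson, 95%) and, like the floors of 3 counts, cover counting error only. Depth was 16482530 to 45791503 counts per library, which leaves genes below about 1 CPM with wide errors. How the authors' counting treated reads shared by close paralogs is not given in the sources used here. Libraries of a mouse deviated together, with correlations across genes of 0.22 to 0.41 within a mouse and at most 0.17 between mice, and their pairing comes from the mouse number in the labels. No 2 libraries of 1 population (56 pairs) agreed within sampling noise. The fits were tested on simulated counts.

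Tried in place of these were a block for the mouse, DESeq2 1.42.0, limma-voom (limma 3.58.1), RLE, upper-quartile and library-size scaling, other filters and thresholds, a prior count of 0.5, each mouse left out, and mice 1 to 3 or 5 to 8 only. The block without mouse 4, and the fits without a filter that used a block or left out a mouse, were chosen after seeing the data. The genes named are the 10 members, a set of preset pathway genes and, in each list, the called gene with the largest difference in each direction that held in 8 of 8 mice. Members and lists were chosen with earlier results of these data known. The genes most like Plin2 are not reported here. Tables and plots used Python 3.11.15 with scipy 1.17.1, pandas 2.3.3, numpy 2.4.6 and matplotlib 3.10.9.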

Additional observations from a re-analysis of the deposited data

Results flagged for a closer look

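Of 22 groups of 8 values examined (the log2 CPM of the 10 genes and the total counts, in each population), 1 held a library set apart from the others by Dixon's test, where chance gives about 1 in 20. It was the total of the tdTom- library of mouse 4, at 45791503 counts against 18318172 to 20668605 in the other 7 tdTom- libraries. The same library was the lowest of its population in 5 of the 6 tested genes and in 7 of 8 absorptive markers on the CPM scale, which takes the total into account. Without mouse 4 the count of tested genes called lower stayed at 6.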

How the results depend on the processing

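The 6 tested genes were lower in tdTom+ cells under all 21 alternatives, and each call held except that of Dgat1 when a log2 fold change beyond 1 was also required. Apob ran from −3.79 to −3.46, Dgat2 from −2.47 to −2.12, Fabp2 from −1.60 to −1.52, Plin2 from −1.34 to −1.25, Mttp from −1.09 to −0.93 and Dgat1 from −0.96 to −0.88. The number of the 10 genes called lower was 10 with no filter and 6 when a mouse was left out, except that it was 8 without mouse 7. Without that mouse Fabp1 and Apoa1 passed the filter, through tdTom- libraries alone, so these added calls are only a description. The number called higher stayed at 0. Over all genes, 8074 calls became 5105 with mice 1 to 3 only, 2653 with a log2 fold change beyond 1, and 7382 to 7989 when a mouse was left out. With the mouse as a replicate block 9068 genes were called, the pairing changed no call of the 6 genes, and without mouse 4 the block called 8981. Leaving out a mouse put the difference of Dgat2 from Dgat1 at −1.37 to −1.24, of Apob from Mttp at −2.70 to −2.43, of Fabp1 from Fabp2 at −1.07 to −0.67 and of Apoa4 from Apoa1 at 0.53 to 1.15. Fabp1 against Fabp2 passed the test with a prior count of 0.5 (−1.67) and without mouse 7. Among the genes named from the lists, Srebf2 lost its call with library-size scaling (0.24) and, like Scarb1 (0.23) and Plin3 (−0.08), with mice 1 to 3 only. Fabp1, Apoa1, Apoa4 and Cd36 rest on 86 to 291 counts each, so depth limits what can be said of them, and the cause of the lost Cd36 calls was not tested.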

Other observations

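Some genes of the pathway that missed the filter had populations that did not overlap. They were picked after their values were seen and are given as values with no test. Of all genes tested, 15.3% had the 8 tdTom+ libraries wholly below the 8 tdTom- libraries. The share among genes below the filter is not given. Npc1l1, the cholesterol transporter of the luminal membrane, averaged 1.34 ± 0.735 CPM in tdTom- cells and, in tdTom+ cells, 0.13 ± 0.0854 CPM (SD, n = 8 each), on 258 counts in all. Cidea, a droplet protein related to Cidec, averaged 0.649 and 0.034 CPM on 114 counts, and Fabp7, the brain-type binding protein, 0.276 and 0.0128 CPM on 52 counts. Apod, a lipocalin that is no chylomicron protein, went the other way, with 0.057 CPM in tdTom- cells against 0.65 in tdTom+ cells on 111 counts, and was higher in 8 of 8 mice.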
